A study of Mus musculus with 34 samples.

Results

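The genes examined were 10 members of the Nrf2 antioxidant response, namely *Nfe2l2*, *Keap1*, *Nqo1*, *Hmox1*, *Gclc*, *Gclm*, *Txnrd1*, *Srxn1*, *Gpx2* and *Sod1*, out of 21938 protein-coding genes. They were taken by name from the pathway, and the value of each was the mean H3K4me3 signal within 1000 bp of its gene 5′ end in GENCODE M21 on the mouse assembly mm10. The signal came from CUT&RUN, in which an antibody brings micrococcal nuclease fused to protein A to a chromatin mark in nuclei that were not crosslinked, and the released DNA is sequenced. Trimethylation of lysine 4 of histone H3, H3K4me3, marks the start regions of genes that are in use. Villi cells were scraped from normal-appearing small intestine of C57BL/6J mice, 2 of them wild type and 2 carrying the germline ApcMin/+ genotype. The Min allele of *Apc* truncates a negative regulator of Wnt signalling, is present in all cells of the mouse and predisposes to intestinal adenomas, and the other *Apc* allele of these mice is normal. Both groups are given as 5 weeks old by the sample labels, and the methods give a slightly greater age. The labels number the 2 libraries of a genotype and do not tie them to mice, so the p-values measure the spread between these libraries, which may be technical. All 4 used the same anti-H3K4me3 antibody, and no treatment is given.

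Nrf2, the transcription factor encoded by *Nfe2l2*, is held in the cytoplasm by Keap1, which presents it to a Cul3 ubiquitin ligase for degradation. Electrophiles and oxidants modify cysteines of Keap1, Nrf2 then accumulates, pairs with small Maf proteins in the nucleus and binds the antioxidant response element, from which Bach1 can displace it. Its targets make and regenerate glutathione and thioredoxin, reduce quinones and degrade haem, and the intestinal epithelium, exposed to food and bacterial products, uses this pathway for its defence.

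The antioxidant response element was looked for as TGACNNNGC on both strands in the RefSeq promoters of GRCm38.p6, the assembly of mm10, each running from 250 bases before to 50 bases after a start. Of the 10 genes, 8 had such an entry and *Hmox1* and *Gclc* had none. These 8 genes had 10 promoters, 3 of them of *Txnrd1*, and the motif was present in 5 of the 10, each of a different gene, against 12.4% of all 32851 promoters of that length. The 5 stretches are shown with the match in capitals, each on the strand of its gene, to give the letters behind that count.
Nfe2l2 (chr2:75704884-75704913, minus strand): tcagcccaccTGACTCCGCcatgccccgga
Gclm (chr3:122245413-122245442, plus strand): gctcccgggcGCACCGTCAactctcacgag
Txnrd1 (chr10:82859104-82859133, plus strand): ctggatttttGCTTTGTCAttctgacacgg
Srxn1 (chr2:152105542-152105571, plus strand): gcagtgggcaGCTAGGTCAgagtgagacac
Sod1 (chr16:90220696-90220725, plus strand): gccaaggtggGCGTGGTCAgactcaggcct
The *Nfe2l2* match lay on the strand of the gene, and the other 4 lay on the opposite strand. The longer form TGACTCAGC was in 0 of the 10 promoters and in 0.454% of all promoters.

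A related form, TGAGNNNGC, was searched after the promoters had been seen, and was in 17.6% of all promoters. Among the 10 promoters it was in 1, that of *Srxn1*, which held 2 matches in addition to the one above. The match nearer the start began 45 bases before it.
Srxn1 (chr2:152105469-152105498, plus strand): aaattcacccTGAGTCAGCggccgggcgcg
A match to these letters was not taken as a bound site, since binding was not measured, and the absence of a match in *Keap1*, *Nqo1* and *Gpx2* covers only these 300 bases.

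The promoters also differed in their CpG content. The *Gpx2* promoter held 0 CpG dinucleotides, as did 5.43% of all promoters, whereas that of *Sod1* held 34 and that of *Gclm* 48. The median promoter held 7. *Gpx2*, which had the largest difference between genotypes described below, is printed beside the CpG-rich *Sod1*, and capitals mark each CpG.
Gpx2 (chr12:76795505-76795804, minus strand): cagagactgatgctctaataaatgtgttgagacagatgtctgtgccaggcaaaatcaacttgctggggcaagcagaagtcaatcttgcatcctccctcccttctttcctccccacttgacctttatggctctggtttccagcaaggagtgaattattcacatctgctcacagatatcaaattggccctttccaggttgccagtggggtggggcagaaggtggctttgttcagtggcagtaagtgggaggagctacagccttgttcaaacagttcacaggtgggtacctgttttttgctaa
Sod1 (chr16:90220512-90220811, plus strand): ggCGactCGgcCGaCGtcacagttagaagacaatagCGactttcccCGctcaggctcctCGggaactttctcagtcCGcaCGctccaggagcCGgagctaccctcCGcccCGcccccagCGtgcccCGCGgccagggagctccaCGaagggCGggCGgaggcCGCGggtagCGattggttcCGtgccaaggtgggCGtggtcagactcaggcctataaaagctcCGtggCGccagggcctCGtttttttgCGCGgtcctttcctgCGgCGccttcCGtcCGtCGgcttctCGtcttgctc
*Txnrd1* had 3 promoters in RefSeq, with 3, 27 and 12 CpG from the outermost inwards. The first and second are printed because H3K4me3 differed between them in every library, as described with the thioredoxin genes.
Txnrd1, outermost start (chr10:82833701-82834000, plus strand): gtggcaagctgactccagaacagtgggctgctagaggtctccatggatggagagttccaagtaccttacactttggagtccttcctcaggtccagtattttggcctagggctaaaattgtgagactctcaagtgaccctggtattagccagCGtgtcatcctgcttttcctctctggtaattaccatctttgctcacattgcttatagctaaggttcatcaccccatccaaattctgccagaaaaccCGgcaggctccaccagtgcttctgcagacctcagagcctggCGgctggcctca
Txnrd1, internal start (chr10:82858956-82859255, plus strand): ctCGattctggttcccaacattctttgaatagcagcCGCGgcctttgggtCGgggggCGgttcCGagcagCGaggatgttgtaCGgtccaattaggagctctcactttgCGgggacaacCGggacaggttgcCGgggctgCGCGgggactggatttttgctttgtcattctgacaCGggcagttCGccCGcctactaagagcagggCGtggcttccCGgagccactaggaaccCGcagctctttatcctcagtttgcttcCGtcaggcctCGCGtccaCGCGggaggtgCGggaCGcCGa

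The 4 libraries held 1430000 tags in wild-type replicate 1, 4790000 in wild-type replicate 2, 3700000 in ApcMin/+ replicate 1 and 5470000 in ApcMin/+ replicate 2. The deposited signal is scaled to equal tags per library, and ApcMin/+ replicate 1 stood apart on this scale. It had 43.3% of its signal in the 55851 enriched regions of the mean track, against 11.9% to 22.6% in the other 3 libraries. That mean track includes this library, so part of its share follows from how the regions were called. ApcMin/+ replicate 1 was also the highest library at 98.6% of the 9930 promoters tested. The median tested promoter was therefore 0.85 higher in ApcMin/+ on the log2(signal + 1) scale. Each difference below is given on the authors' scale and again after each library had been centred on its median tested promoter. Centring would also remove a real change shared by most promoters. Percentiles among the 21938 promoters of a library, which no scaling alters, are given as well. All 12 epithelial and enterocyte marker genes passed the filter of a mean signal of 2, and 0 of 10 leukocyte, 0 of 9 mesenchymal and endothelial and 0 of 4 neural markers did. The epithelial list summed to a signal of 74.4 and 47.6 in wild type, with 222 and 59.4 in ApcMin/+, and that of the leukocyte list was 7.45, 6.39, 10.8 and 6.90, with *Ptprc* at 0 in 1 library. Fewer cells of a type and less H3K4me3 per cell cannot be told apart in such bulk libraries.

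H3K4me3 was present at the 5′ ends of 8 of the 10 genes in the sense that their signal, averaged over the 4 libraries, reached the filter of 2. *Hmox1*, with a mean of 1.79, and *Txnrd1*, with 0.638, did not. On the authors' scale all 8 differences between genotypes were positive, with a median of 0.63 against 0.85 over all tested promoters. After centring, the median was -0.22, and relative to the median promoter 2 genes were higher and 6 lower in ApcMin/+. None of the 8 passed the threshold of 0.05 in limma with Benjamini-Hochberg adjustment on either scale. Over all tested promoters the percentage called was 0% on the authors' scale and 0.121% after centring. On the authors' scale the smallest Benjamini-Hochberg adjusted p that limma gave for any promoter was 0.683, so that fit called nothing anywhere and a gene's failure to pass in it is uninformative. At an unadjusted p under 0.05 limma gave 0 of the 8 and 132 of the 9930 promoters on the authors' scale, and 1 of the 8, *Gpx2*, and 294 promoters after centring.

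**Figure D1:**
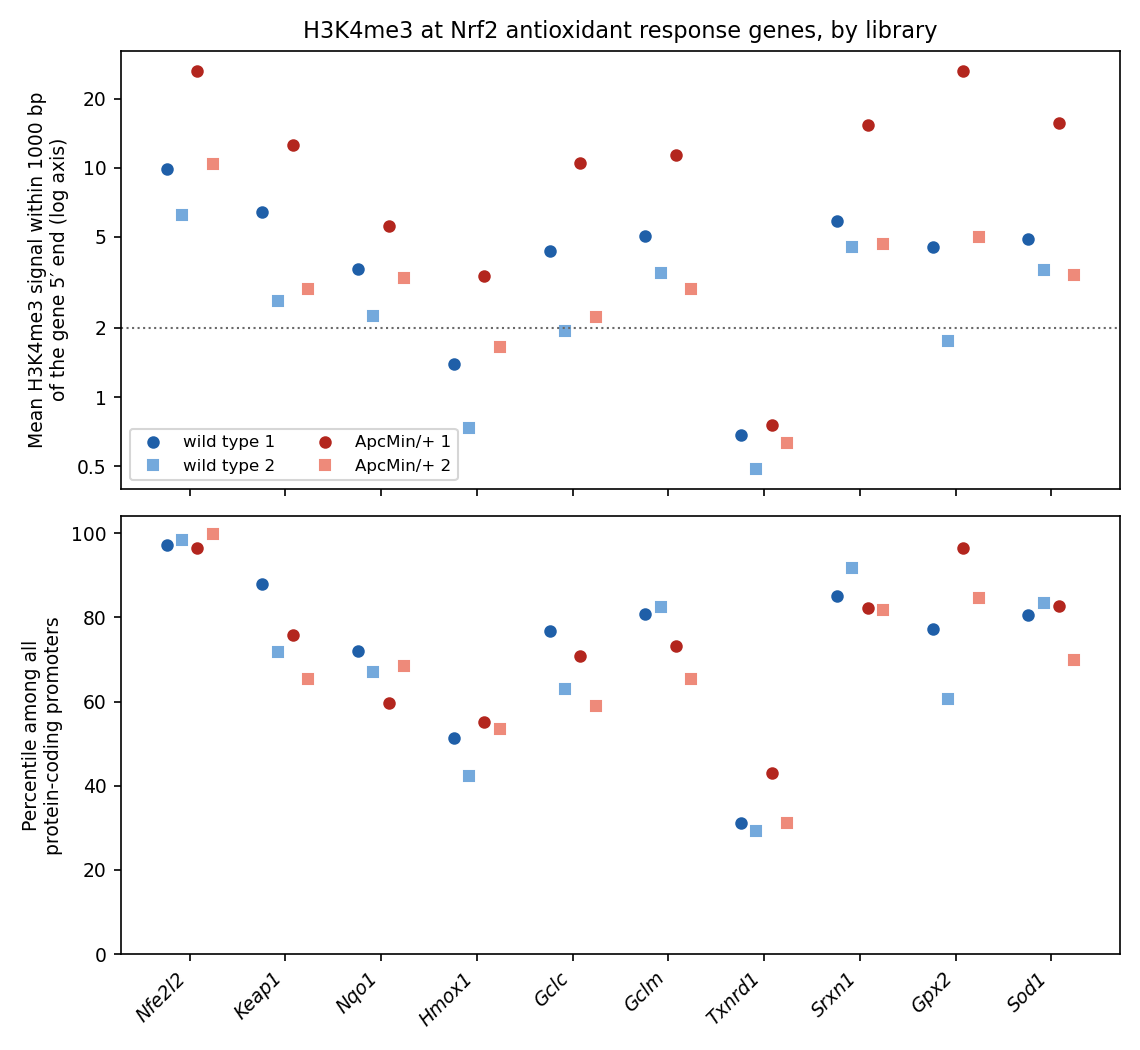
Mean H3K4me3 signal within 1000 bp of the gene 5′ end (upper panel, log axis; dotted line, the filter of 2) and its percentile among all protein-coding promoters (lower panel) for 10 genes in 2 wild-type and 2 ApcMin/+ libraries, 1 point per library. ApcMin/+ replicate 1 is the highest point of every gene in the upper panel, while in the lower panel both ApcMin/+ libraries of Gpx2, at 96.4 and 84.6, lie above the wild-type libraries at 77.1 and 60.6. In the lower panel both ApcMin/+ libraries also lie above both wild-type libraries at Hmox1 and Txnrd1, and below them at Gclm and Srxn1.

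Among the regulators, *Nfe2l2* had the highest signal of the 10 genes in all 4 libraries and was near the top of all promoters. Wild-type replicate 1 gave a signal of 9.88 and replicate 2 one of 6.19, whereas ApcMin/+ replicate 1 gave 26.5 and replicate 2 gave 10.3, from 28.3 to 196 fragments. Paired values below keep this order of replicates. Its percentile was 97.2, 98.5, 96.4 and 99.8 in the same order. The groups did not overlap on the authors' scale, the lower ApcMin/+ library lying just above the higher wild-type library, and they overlapped by percentile. The log2 difference was 1.00 ± 1.26 (SE) as scaled and 0.14 ± 0.33 after centring, with adjusted p of 0.683 and 0.9995 in limma with Benjamini-Hochberg adjustment. Without ApcMin/+ replicate 1 the difference of *Nfe2l2* was 0.36 as scaled, and without replicate 2 it was 1.64. The gene lies at chr2:75675513-75704641 on the minus strand. The start of a non-coding gene, *E030042O20Rik*, lies within 2000 bp of its 5′ end. Signal of the 2 starts cannot be told apart where it overlaps.

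The enriched region over the *Nfe2l2* start was 9.70 kb long, longer than 99.8% of the regions found at the starts of other genes, and reached 8840 bp into the gene. When regions were called without ApcMin/+ replicate 1, which has the largest share of its signal in regions, it was 4.90 kb, still longer than 97.6% of them. The median region at a start was 1.80 kb with that library and 1.5 kb without it.

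*Keap1*, which encodes the sensor that represses Nrf2, lies at chr9:21229730-21239361 on the minus strand. Its signal was 6.39 and 2.62 in wild type, and 12.5 and 2.94 in ApcMin/+. The groups overlapped, since ApcMin/+ replicate 2 was below wild-type replicate 1. The log2 difference was 0.50 ± 1.00 as scaled and -0.36 ± 0.30 after centring, and thus changed sign with the scaling (limma, Benjamini-Hochberg adjusted p = 0.695 and 0.9995). Its percentile fell between 65.3 and 88.0, the lowest value in ApcMin/+ and the highest in wild type.

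*Nqo1* encodes a quinone reductase that is widely used as a readout of Nrf2 activity, and *Hmox1* encodes the haem oxygenase that frees iron and biliverdin from haem. The signal at *Nqo1* (chr8:107388225-107403206, minus strand) was 3.63 and 2.27 in wild type, and 5.54 and 3.29 in ApcMin/+, and the groups overlapped. The log2 difference was 0.45 ± 0.81 as scaled and -0.41 ± 0.37 after centring (limma, Benjamini-Hochberg adjusted p = 0.685 and 0.9995).

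*Hmox1* (chr8:75093621-75100589, plus strand) had a lower and narrower signal. It measured 1.40 and 0.731 in wild type, and 3.38 and 1.64 in ApcMin/+, from 4 and 7 fragments and from 25 and 18 fragments, so its counting error is large. Both ApcMin/+ libraries lay above both wild-type libraries, and by percentile they did so narrowly, at 55.1 and 53.4 against 51.4 and 42.2. Its enriched region, 0.40 kb long, ran from -20 bp to 379 bp relative to the start. The highest 100-bp bin within 2000 bp of the start lay 100 to 200 bp downstream in 3 of the 4 libraries. Averaging over 1000 bp on each side thus diluted a peak whose signal within the region was 6.33 and 2.48 in wild type, and 16.2 and 7.02 in ApcMin/+. The region values rest on 3.6 and 4.8 fragments in wild type, and 24 and 15.4 in ApcMin/+, fewer than in the window. Relative to the median region at gene starts, the log2 difference of the *Hmox1* region was 0.38 and the groups overlapped.

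*Gclc* and *Gclm* encode the catalytic and the modifier subunit of glutamate-cysteine ligase, the rate-limiting enzyme of glutathione synthesis. At *Gclc* (chr9:77754535-77794485, plus strand) the signal was 4.33 and 1.94 in wild type, and 10.4 and 2.23 in ApcMin/+. At *Gclm* (chr3:122245557-122270732, plus strand) it was 5.01 and 3.49 in wild type, and 11.4 and 2.95 in ApcMin/+. In both genes ApcMin/+ replicate 1 was the highest library and the groups overlapped, and ApcMin/+ replicate 2 was the lowest library at *Gclm*. The log2 difference of *Gclc* was 0.62 ± 0.86 as scaled and -0.23 ± 0.34 after centring, and that of *Gclm* was 0.43 ± 0.99 and -0.43 ± 0.30. Neither passed in limma, with Benjamini-Hochberg adjusted p of 0.683 and 0.715 as scaled and 0.9995 for both after centring. After centring both ApcMin/+ libraries lay below both wild-type libraries at *Gclm*, and its percentile was 80.8 and 82.5 in wild type against 73.1 and 65.3 in ApcMin/+. The 2 subunits were alike in that most of the signal in the window lay downstream of the 5′ end. At *Gclc* this share was 96.6% and 94.6% in wild type, and 87.5% and 86.3% in ApcMin/+. At *Gclm* it was 86.1% and 85.0% in wild type, and 95.2% and 96.9% in ApcMin/+. The highest 100-bp bin differed, lying in both wild-type libraries 300 to 400 bp downstream at *Gclc* and 900 to 1000 bp at *Gclm*. In ApcMin/+ it lay at 700 to 800 and 300 to 400 bp at *Gclc*, and at 900 to 1000 and 700 to 800 bp at *Gclm*. A downstream majority was not particular to them, since *Hmox1* had 80.1% to 94.7% downstream and *Sod1* 73.55% to 93.3%, though *Nqo1* had 42.9% to 64.8%. The share over all promoters was not computed.

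The thioredoxin genes were *Txnrd1*, which encodes the cytosolic thioredoxin reductase, and *Srxn1*, which encodes sulfiredoxin, the enzyme that restores overoxidised peroxiredoxins. At the outermost 5′ end of *Txnrd1* (chr10:82833951-82897712, plus strand) the signal was 0.683 and 0.486 in wild type, and 0.756 and 0.627 in ApcMin/+, from 2.0 to 6.9 fragments. This was near background, which was 0.198 to 0.322 in the 4 libraries, and its percentile was 29.3 to 42.9. H3K4me3 stood instead at a cluster of annotated transcript starts 25228 to 26554 bp further into the gene. At the annotated start 26350 bp downstream, the signal was 8.70 and 6.12 in wild type, and 43.2 and 6.74 in ApcMin/+, with percentiles of 93.4 to 99.8 among the best starts of all genes. The annotated start 26350 bp downstream lies in the innermost RefSeq promoter, with 12 CpG. The CpG-rich promoter printed above as the internal start, with 27, lies upstream of it in the cluster. At the start 25256 bp downstream, within that promoter, the signal was 6.60 and 3.90 in wild type, and 31.8 and 5.92 in ApcMin/+. The windows around the starts 25256 and 26350 bp downstream overlap, so their values share signal and do not separate these promoters. The outermost start is the CpG-poor one.

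Measured at the start 26350 bp downstream, the log2 difference was 1.15 ± 1.29 as scaled and 0.27 ± 0.33 after centring. The groups overlapped on both scales (limma, Benjamini-Hochberg adjusted p = 0.682 and 0.9998). A second, narrower rise lay 42500 to 42700 bp downstream of the outermost 5′ end of *Txnrd1*, away from any annotated start of the gene. In the 200-bp bin of *Txnrd1* centred 42500 bp downstream the signal was 4.64 and 2.43 in wild type, and 8.42 and 12.4 in ApcMin/+, and in the bin centred 42700 bp downstream it was 5.05 and 6.23, and 9.40 and 7.84. Wild-type replicate 1 reached more than this in isolated bins elsewhere in *Txnrd1*, such as 6.96 at 18100 bp. The rise therefore does not stand out in that shallow library. In ApcMin/+ replicate 1 the bin centred 14300 bp downstream held 8.72, near the values of the rise. The rise was chosen after its values were seen and was not tested.

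**Figure D2:**
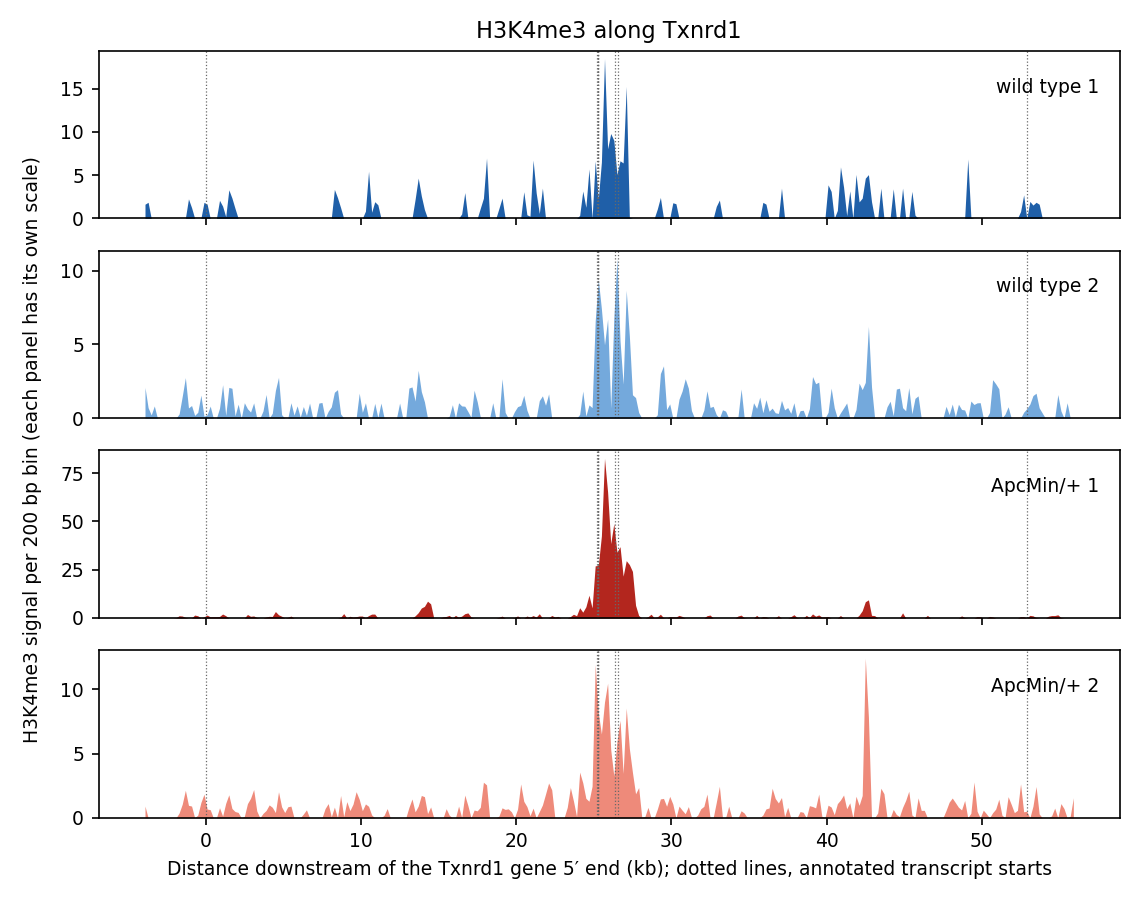
H3K4me3 signal in 200-bp bins along Txnrd1 in each of the 4 libraries, against the distance from the outermost gene 5′ end in kb, with dotted lines at annotated transcript starts and a separate vertical scale in each panel. In all 4 libraries the signal stands around the cluster of starts 25228 to 26554 bp downstream and is close to background at the outermost 5′ end.

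*Srxn1* (chr2:152105516-152111376, plus strand) had a signal of 5.83 and 4.50 in wild type, and of 15.4 and 4.63 in ApcMin/+. ApcMin/+ replicate 2 lay between the wild-type libraries, so the groups overlapped. By percentile they did not, at 85.05 and 91.65 in wild type against 82.15 and 81.8 in ApcMin/+. The log2 difference was 0.65 ± 1.13 as scaled and -0.21 ± 0.28 after centring, where both ApcMin/+ libraries lay below both wild-type libraries (limma, Benjamini-Hochberg adjusted p = 0.684 and 0.9995). Its region was 6.30 kb long, spanning nearly the whole gene, and longer than 98.5% of regions at starts, and it was 2.70 kb without ApcMin/+ replicate 1. The longer of these lengths rests on that library.

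*Gpx2* encodes the gastrointestinal glutathione peroxidase, a selenoprotein of the epithelium that reduces hydroperoxides, and showed the largest difference of the 8 genes on both scales, for which it is described at more length here. Its signal at chr12:76792333-76795554 on the minus strand was 4.49 and 1.76 in wild type, and 26.4 and 4.97 in ApcMin/+, from 12.9 and 16.8 fragments and from 195.5 and 54.3 fragments. The groups did not overlap on the authors' scale, after centring or by percentile, which was 77.1 and 60.6 in wild type against 96.4 and 84.6 in ApcMin/+. Groups also did not overlap by percentile at *Hmox1* and *Txnrd1*, higher in ApcMin/+, and at *Gclm* and *Srxn1*, lower in ApcMin/+. The share of all promoters without overlap by percentile was not computed. As means ± SD (n = 2) the signal of *Gpx2* was 3.13 ± 1.93 in wild type and 15.7 ± 15.1 in ApcMin/+, a spread set by the distance between the 2 ApcMin/+ libraries.

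The log2 difference of *Gpx2* was 1.72 ± 1.09 (SE) as scaled and 0.86 ± 0.28 after centring. In limma the unadjusted p after centring was 0.00252 and the Benjamini-Hochberg adjusted p was 0.715, against 0.683 as scaled, so it did not pass over the 9930 promoters. It was positive in all 22 fits, between 0.49 and 2.81, and the lowest value came from leaving out ApcMin/+ replicate 1 after centring. These fits reuse the same 4 libraries. Since the groups did not overlap on either scale, leaving out 1 library could not change the sign. Without ApcMin/+ replicate 2 on the authors' scale, which leaves the high library alone against wild type, *Gpx2* passed (limma, Benjamini-Hochberg adjusted p = 0.000323), but so did 65.2% of all promoters, 4 of the 8 genes among them.

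The signal at *Gpx2* extended past the window. The enriched region was 7.10 kb long, longer than 99.2% of regions at starts, and ran from -4346 bp to 2753 bp relative to the 5′ end, over most of the gene. Its signal was 2.16 and 1.18 in wild type, and 19.3 and 3.01 in ApcMin/+, which is 21.9 and 40 fragments against 507 and 116.9. Relative to the median of 11360 regions at gene starts, its log2 difference was 0.94, higher than that of 99.3% of them, and both ApcMin/+ libraries were above both wild-type libraries. The extent rested on ApcMin/+ replicate 1: without it the region was 2.90 kb, longer than 86.8% of regions at starts. Regions were called on the mean of all 4 tracks, in which that library weighs most, so these values describe the locus and test nothing.

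**Figure D3:**
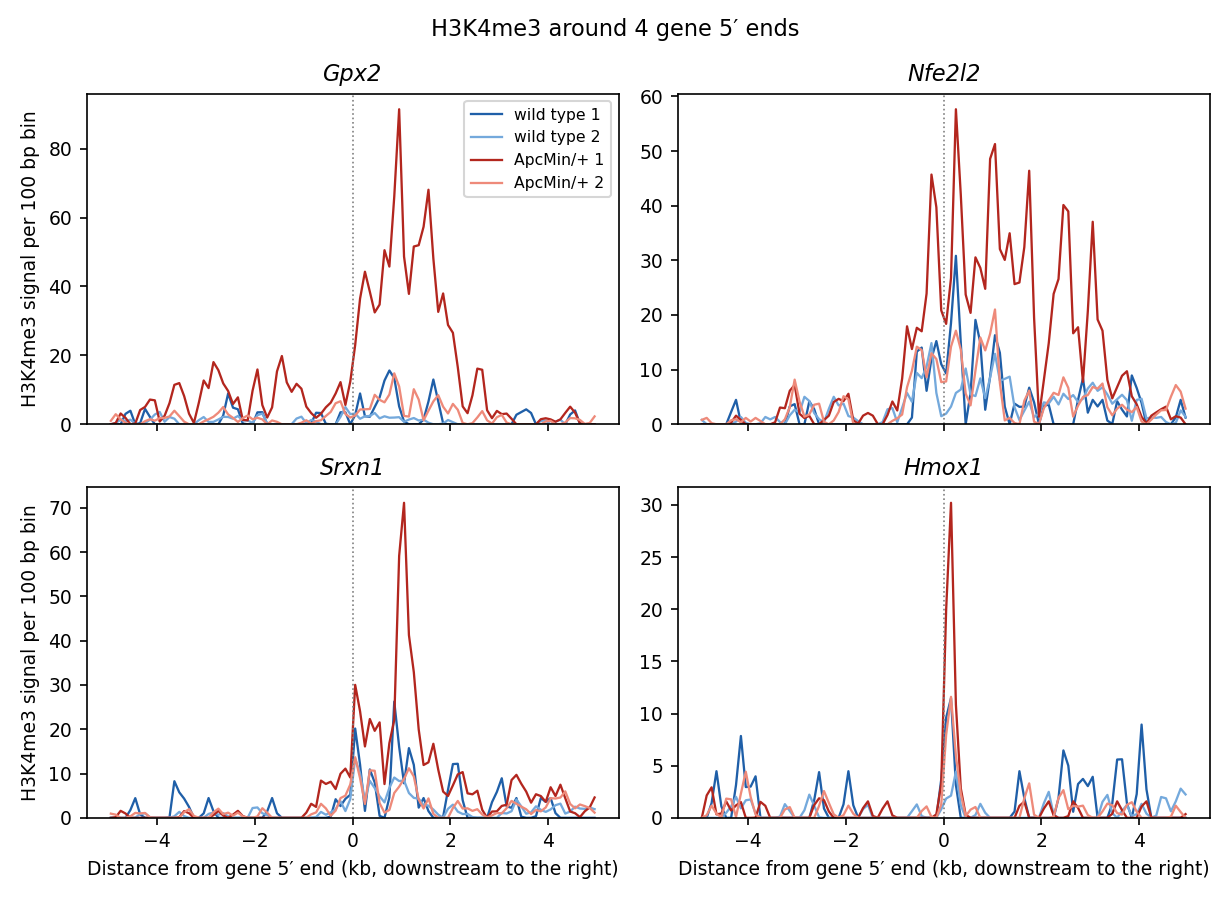
H3K4me3 signal in 100-bp bins from 5 kb upstream to 5 kb downstream of 4 gene 5′ ends, 1 line per library, with a separate vertical scale in each panel. Within 2000 bp of the Gpx2 5′ end the ApcMin/+ replicate 1 line reaches 91.4 and that of ApcMin/+ replicate 2 reaches 14.8. The wild-type lines reach 15.6 and 5.00 there. Within the same distance at Hmox1, the signal is highest in a narrow peak just after the 5′ end in all 4 libraries.

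*Sod1* encodes the cytosolic copper and zinc superoxide dismutase, an enzyme of most cells. Its signal at chr16:90220754-90226329 on the plus strand was 4.88 and 3.56 in wild type, and 15.6 and 3.41 in ApcMin/+, so the 2 ApcMin/+ libraries were the highest and the lowest of the 4. The log2 difference was 0.72 ± 1.05 as scaled and -0.13 ± 0.29 after centring (limma, Benjamini-Hochberg adjusted p = 0.683 and 0.9995).

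By group overlap, 2 of the 8 tested genes, *Nfe2l2* and *Gpx2*, had both ApcMin/+ libraries above both wild-type libraries on the authors' scale, where 38.5% of all tested promoters did, and 0 had both below, where 0.161% of all did. After centring, 1 gene, *Gpx2*, had both above, against 13.1% of all tested promoters, and 2 genes, *Gclm* and *Srxn1*, had both below, against 14.3%. Over 8 genes, counts of this size beside these shares are no result about the genes. Without ApcMin/+ replicate 1 the median difference over the 8 genes was -0.18 on the authors' scale, and the differences of *Keap1*, *Gclc*, *Gclm*, *Srxn1* and *Sod1* were negative.

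**Figure D4:**
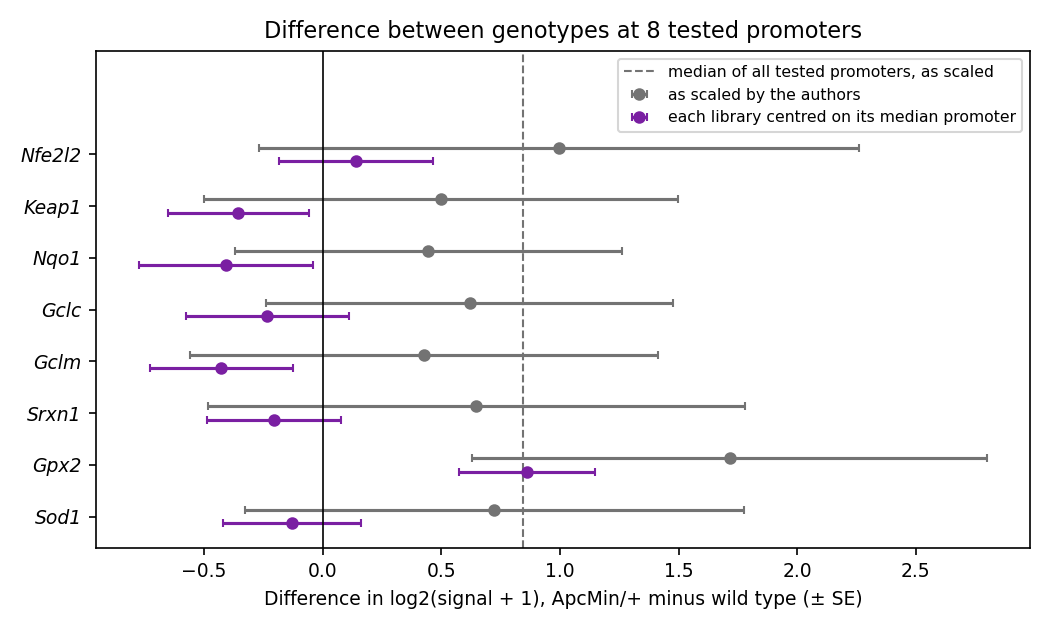
Difference in log2(signal + 1), ApcMin/+ minus wild type, for the 8 genes that passed the filter, with bars of 1 SE from limma, on the authors' scale (grey) and after each library was centred on its median promoter (purple). On the authors' scale 7 of the 8 points lie within 0.43 to 1.00 and Gpx2 at 1.72, around the dashed line at 0.85, and after centring only Gpx2 and Nfe2l2 are above 0.

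The other genes of the pathway were examined as a list of 50 partners, paralogs and redox enzymes, of which 32 passed the filter. All 32 differences were positive on the authors' scale, with a median of 0.90. After centring, 21 were higher and 11 lower relative to the median promoter, with a median of 0.05. None of the 32 passed in limma with Benjamini-Hochberg adjustment on either scale, and 0 had an unadjusted p under 0.05 on either. Both ApcMin/+ libraries lay above both wild-type libraries at 8 of them as scaled and at 4 after centring, and below them at 0 and 5. Over all tested promoters the shares were 38.5% and 13.1% above, and 0.161% and 14.3% below, so these counts are no result about the list. The wild-type means of *Gpx1* and *Me1* were 1.909 and 1.635, so both reached the filter only through the ApcMin/+ libraries. Both are counted among the positive differences on both scales.

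Of the partners of Nrf2, *Cul3*, the scaffold of the ligase that degrades it, had a centred log2 difference of 0.01 ± 0.28, and *Bach1*, its competitor, one of 0.33 ± 0.36. *Mafg*, a small Maf partner, was at -0.50 ± 0.33 and was lower in both ApcMin/+ libraries after centring. The paralog *Nfe2l1* was at 0.06 ± 0.29, and *Nfe2l3* did not pass the filter, with a signal of 0.675 to 1.14. None of these differences passed in limma with Benjamini-Hochberg adjustment (adjusted p = 0.9995 for each of the 4 tested).

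The paralogs of the enzymes gave a similar picture. *Gpx1*, the ubiquitous glutathione peroxidase, had the largest positive difference among the genes of the list whose groups did not overlap after centring, at 0.42 ± 0.37. Its signal was 2.09 and 1.73 in wild type, and 10.5 and 3.33 in ApcMin/+. The wild-type mean of *Gpx1* was 1.91, so it reached the filter of 2 only through the ApcMin/+ libraries, and its place in this order is a description. *Taldo1* of the pentose phosphate pathway, at 0.32 ± 0.32, and *Sqstm1*, whose product p62 sequesters Keap1, at 0.20 ± 0.29, came next. At the other end were *Bach2* at -0.84 ± 0.48, *Blvra*, a biliverdin reductase acting after haem oxygenase, at -0.52 ± 0.41, and *Mafg*. The mitochondrial and testis thioredoxin reductases *Txnrd2* and *Txnrd3* were at -0.25 ± 0.28 and -0.33 ± 0.31.

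*Gpx3*, *Gpx4*, *Sod2* and *Sod3* did not pass the filter at their gene 5′ ends, where their mean signal was 0.629, 0.733, 1.91 and 0.556. As with *Txnrd1*, the outermost annotated 5′ end was not where H3K4me3 stood in some of them. Of the 18 genes of the list under the filter, 7 passed it at another annotated start, as did 866 of 12008 over all genes. The mitochondrial superoxide dismutase *Sod2* reached a mean of 10.3 at a start 1.34 kb downstream, and *Gpx4*, which protects membrane lipids, reached 9.16 at a start 6.87 kb downstream. *Gpx3* and *Sod3*, whose products are secreted, stayed at 0.705 and 0.556.

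The 3 promoters nearest to the mean of the 8 genes over the 4 libraries, by Euclidean distance of centred log2 values, were *Gm37988*, *Cox15* and *Cutc*, at distances of 0.056, 0.063 and 0.063. *Cox15* and *Cutc* start side by side on opposite strands and so share nearly all of their window, and the likeness over 4 libraries is a description only.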

How the data were processed

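The deposited files were coverage tracks of H3K4me3 CUT&RUN, with no counts, for 4 libraries of 34 labelled samples; the other 30 samples were not analysed here. According to the labels and methods, the authors aligned read pairs to mm10 with Bowtie2, removed duplicates with Picard, kept fragments of 150 to 500 bp and wrote signal with HOMER, scaled to 10000000 tags per library. Scaling to equal tags makes signal at promoters depend on how much of a library lies in background. Fragments were obtained as summed signal over track sum per tag, and give counting error only.

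The 9930 promoters whose mean signal reached 2 were compared on log2(signal + 1) in limma (version 3.58.1, run under R 4.3.3, trend option on), with Benjamini-Hochberg adjustment over all of them and a threshold of 0.05. This understates the change of low promoters. The test was checked on simulated data with 4-fold changes at 200 promoters, and it recovered 100% of them with equal libraries. After centring it also recovered 100% with 1 library raised 3-fold at all promoters. False calls numbered 6 to 8 in these fits. With that raised library and no centring it recovered 0%. The check did not cover smaller changes, nor a raise that differs between promoters. In these data the ratio of ApcMin/+ replicate 1 to replicate 2 was 1.69 at *Nqo1* and 5.31 at *Gpx2*. Enriched regions were called on the mean track in 100-bp bins at 5 times the genome mean, joined over 500 bp, with a minimum of 300 bp. Signal was extracted in Python 3.11.15 (pandas 2.3.3, numpy 2.4.6) and drawn with matplotlib 3.10.9. Alternatives were centring, quantile and background scaling, windows of 500 and 2000 bp, the transcript start with the highest mean signal, pseudocounts of 0.1 and 5, other filters, a replicate block and leaving out each library. The start with the highest signal together with centring was added after seeing the data.

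The genes named were the 10 members, 12 set paralogs and partners from the list of 50, its 3 largest centred differences in each direction with groups that do not overlap, and the 3 promoters nearest to the members' mean. *Me1* was named in addition for its wild-type mean, which was under the filter. The starts of Txnrd1 and the second rise in it were chosen after their values were seen. Members and lists were chosen with earlier results of these data known. The methods name 2 mice of each genotype, and the labels do not say which mouse gave which library or that equal numbers share a litter or batch.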

Additional observations from a re-analysis of the deposited data

How the results depend on the processing

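The 8 differences on the authors' scale were positive, and 6 of them changed sign after centring or quantile normalization. Scaled to background, which removes no shift of the median promoter, all 8 were positive, from 0.69 for *Nqo1* to 1.98 for *Gpx2*, with a median of 0.93 over 9 genes, *Hmox1* included. The median over the 8 genes, 0.63 as scaled, was -0.22 after centring, -0.24 with quantile normalization, -0.22 with centring and the replicate block together, and -0.19, over 9 genes with *Txnrd1*, with centring and the transcript start of highest signal. The corresponding values were, in the same order, -0.36, -0.36, -0.36 and -0.19 for *Keap1*; -0.41, -0.29, -0.41 and -0.44 for *Nqo1*; -0.23, -0.24, -0.23 and -0.27 for *Gclc*; -0.43, -0.47, -0.43 and -0.36 for *Gclm*; -0.21, -0.24, -0.21 and -0.23 for *Srxn1*; and -0.13, -0.21, -0.13 and -0.16 for *Sod1*. *Gclm* was also at -0.24 in a window of 500 bp. *Nfe2l2* and *Gpx2* were positive in all 22 fits each, which reuse the same libraries, but their size varied with the libraries used. Genes with both ApcMin/+ libraries higher numbered 1 in those 4 fits, against 2. Promoters past the threshold numbered 0 as scaled, 12 after centring, 2 with quantile normalization, 1 with the replicate block, 15 with the block and centring, and 13 with centring and the start of highest signal, and 0 of them were among the 8 genes in these fits. Replicate numbers were not taken as pairs: over the promoters the deviations of same-numbered libraries correlated at 0.196, with 2 pairs. Leaving out 1 library, on either scale, gave a median over the 8 genes of -0.30 to 1.48, 1 to 8 genes with all ApcMin/+ libraries higher, 0 to 4 of the 8 and 0 to 6479 promoters past the threshold; the upper ends came from leaving out ApcMin/+ replicate 2, and a lone library is assumed to vary like the others. The ranges were 0.05 to 1.64 for *Nfe2l2*, 0.49 to 2.81 for *Gpx2*, -0.65 to 1.39 for *Keap1*, -0.83 to 0.75 for *Nqo1*, -0.44 to 1.53 for *Gclc*, -0.52 to 1.25 for *Gclm*, -0.27 to 1.42 for *Srxn1* and -0.36 to 1.68 for *Sod1*. The smallest difference that these libraries can show was not tested, and the shallowest library held 12.9 fragments at *Gpx2*.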
